A study of Homo sapiens with 4 samples.

Results

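The interferon-stimulated genes are the genes that cells switch on when an interferon is bound at the cell surface, and 47 of them were followed here in A549 cells treated with embelin. They were found on the array by their gene name, by an older name of the gene or by a transcript of the gene, and they made up 47 of the 30988 genes or transcripts that the array names. The group was proposed with the embelin against control values of these same arrays in view, so those values are given as a description and support nothing by themselves. A549 cells are an established line from a human lung adenocarcinoma, and embelin is a plant benzoquinone found in the fruits of Embelia ribes. Gene expression was measured in 2 control samples of untreated A549 cells (the labels give an embelin dose of 0 µM and name no vehicle) and in 2 samples of A549 cells treated with 15 µM embelin, all 4 taken at 4 h and kept in low-serum medium from before the treatment. The labels number the replicates and do not say that they came from separate cultures, so each p-value measures only the spread between these samples, which may be technical.

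Type I interferons bind the receptor pair IFNAR1 and IFNAR2, whose kinases JAK1 and TYK2 phosphorylate transcription factors such as STAT2. A complex that holds STAT2 and IRF9 binds the interferon-stimulated response element, a DNA sequence found before the start of many interferon-stimulated genes, whereas the gamma-activated site is another DNA element and answers to interferon gamma. Products of these genes sense viral RNA, block viral translation, tag proteins with the ubiquitin-like ISG15, or load peptides for antigen presentation. Many of them are also expressed at a low level without added interferon, and no interferon was added here.

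Each RNA sample was hybridized to 1 single-colour array, and the 4 arrays lay on 1 slide and were read in 1 scan. The groups differed in position on the slide (control at positions 1 and 4, embelin at 2 and 3), and position and treatment cannot be told apart. Background noise did not follow the groups: 66.7% of probes were well above background on control 1 and 66.4% on embelin 2, but 50.3% on control 2 and 51.2% on embelin 1. All 12 epithelial and lung adenocarcinoma markers passed the filter on dim probes (mean log2 signal in the controls from 11.7 to 17.8), as did 5 of 9 leukocyte markers, 1 of 6 fibroblast markers and 0 of 4 endothelial markers. The leukocyte markers PTPRC, LYZ, SPI1 and HLA-DRA were not kept, whereas CD3E, CD4, CD14, CD68 and CD79A were, with log2 fold changes of 1.25, -0.05, -0.60, 0.39 and -0.13, and CD3E was called above background on 1 control array. The fibroblast marker kept was COL1A1, a collagen chain, with a log2 fold change of 1.30 (adjusted p = 0.055). No marker of the 4 lists passed the adjusted test, and their part in the results was not tested. In RNA from a whole culture, fewer cells of a type and less RNA per cell cannot be told apart.

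The sequence before the start of the members is shown because the response element is what the pathway acts on. The RefSeq table of promoters (build GRCh38.p14) held 48 windows for 36 of the 47 members, each from 250 bases before to 50 bases after an annotated start. It held none for IFIT2, IFITM2, USP18, MX2, OAS2, OASL, DHX58, IRF2, IRF7, TRIM22 and GBP2. The core of the response element was searched on both strands as GAAA, any 2 bases and GAAA, and the gamma-activated site as TTC, any 3 bases and GAA, which reads the same on both strands. Matches of the core may overlap each other. In the lines that follow the 250 bases before the start are printed 5′ to 3′ on the strand of the gene, with each match of the core in capitals. IFIT1 lies at chr10:89392373-89392622 (plus strand), IFIT3 at chr10:89327747-89327996 (plus strand, 1 of its 2 windows), PARP9 at chr3:122564301-122564550 (minus strand, 1 of its 2 windows), IFI44 at chr1:78649539-78649788 (plus strand, 1 of its 2 windows), ISG15 at chr1:1013247-1013496 (plus strand) and ISG20 at chr15:88638766-88639015 (plus strand). They were chosen to show members that were lower, level and higher with embelin.
IFIT1: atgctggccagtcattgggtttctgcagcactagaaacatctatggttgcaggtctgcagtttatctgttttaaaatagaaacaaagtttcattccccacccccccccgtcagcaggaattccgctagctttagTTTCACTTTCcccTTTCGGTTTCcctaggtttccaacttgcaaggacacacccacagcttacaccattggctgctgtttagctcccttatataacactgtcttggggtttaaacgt
IFIT3: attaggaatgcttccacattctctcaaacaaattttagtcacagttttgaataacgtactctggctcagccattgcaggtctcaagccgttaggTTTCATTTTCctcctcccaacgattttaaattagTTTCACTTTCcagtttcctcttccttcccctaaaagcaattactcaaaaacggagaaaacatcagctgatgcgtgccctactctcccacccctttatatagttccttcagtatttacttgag
PARP9: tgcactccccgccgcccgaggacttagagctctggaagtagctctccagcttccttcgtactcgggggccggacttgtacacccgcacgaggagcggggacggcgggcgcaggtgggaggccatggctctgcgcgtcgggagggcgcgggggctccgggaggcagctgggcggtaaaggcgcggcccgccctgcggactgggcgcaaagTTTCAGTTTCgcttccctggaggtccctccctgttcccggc
IFI44: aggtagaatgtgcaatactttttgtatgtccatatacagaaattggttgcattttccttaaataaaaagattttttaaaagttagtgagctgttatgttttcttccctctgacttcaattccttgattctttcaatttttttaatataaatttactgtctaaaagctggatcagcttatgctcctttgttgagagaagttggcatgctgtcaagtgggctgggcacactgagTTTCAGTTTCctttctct
ISG15: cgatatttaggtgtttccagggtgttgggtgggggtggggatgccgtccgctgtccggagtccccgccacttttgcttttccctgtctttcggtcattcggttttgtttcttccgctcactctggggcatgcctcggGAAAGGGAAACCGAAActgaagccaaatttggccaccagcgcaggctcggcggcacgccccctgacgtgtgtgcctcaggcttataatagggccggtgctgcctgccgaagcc
ISG20: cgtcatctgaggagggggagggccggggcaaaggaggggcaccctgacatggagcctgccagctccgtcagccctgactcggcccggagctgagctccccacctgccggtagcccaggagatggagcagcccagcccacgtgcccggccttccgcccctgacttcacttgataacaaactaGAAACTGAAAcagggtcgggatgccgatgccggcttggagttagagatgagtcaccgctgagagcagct

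A match of the core stood in at least 1 window of 25 of the 36 members (69.4%), whereas 4.38% of all 27305 genes with a window and 3.57% of all 35116 windows held it. Of the 25 members, 15 held at least 2 matches in 1 window, and 43 of the 46 distinct matches lay within 200 bases before a start. The gamma-activated site matched in 11 of the 36 members (30.6%), against 9.38% of all genes with a window, and 6 members held both motifs. HERC6, CMPK2, DDX58, IFI16, STAT2 and SAMD9L held neither in these windows. Among the further genes of the pathway, the core was found in 21 of 34 further interferon-stimulated genes (61.8%) and in 0 of 8 receptors and JAK kinases. It also stood in 4 of 9 interferon ligands and 2 of 9 genes that sense nucleic acids or relay the signal. Of the negative regulators 1 of 7 held it, and of the transcription factors outside the members 0 of 5. A match is a stretch of letters and was not tested as a binding site.

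**Figure D1:**
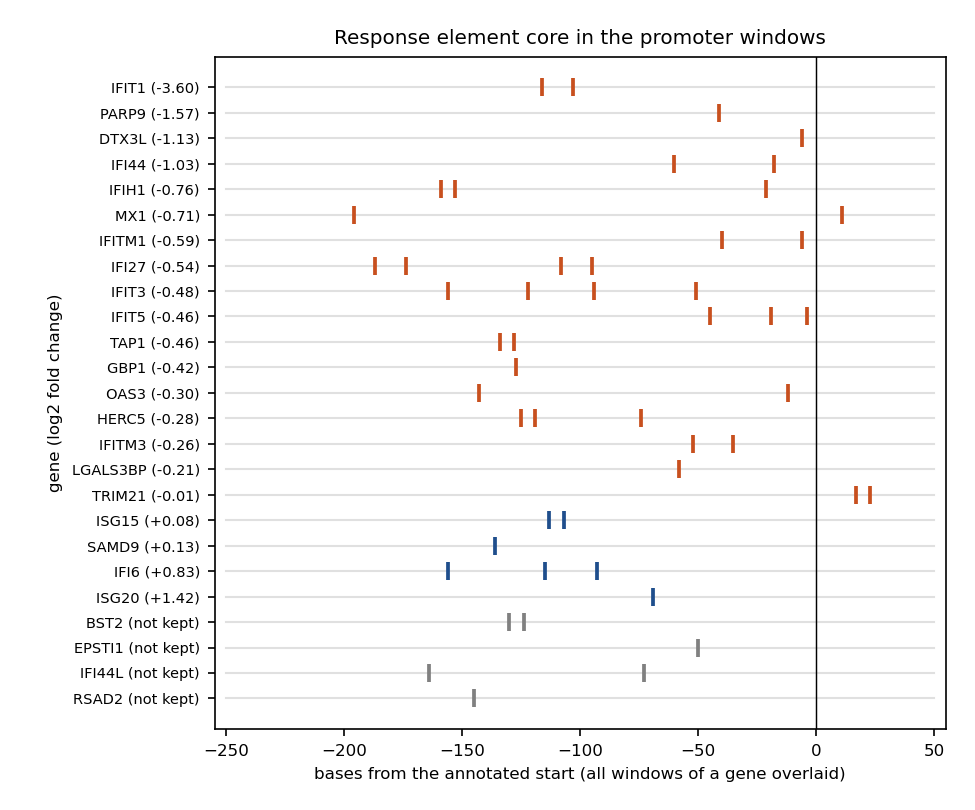
Position of each match of the response element core (vertical ticks, at the first base of the match) in the promoter windows of the 25 members that held it, in bases from the annotated start, with all windows of a gene overlaid. Genes are ordered by log2 fold change of embelin over control (orange ticks below 0, blue ticks above 0, grey ticks not kept by the filter), and matches stood before the start in genes of either direction, from IFIT1 (-3.60) to ISG20 (1.42).

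Of the 47 members, 39 had a probe that the scanner software called well above background throughout at least 1 group and were tested. In 32 of these the mean log2 signal was below control (56.1% of all 17668 genes tested were below control), and the median log2 fold change was -0.42 against -0.06 over all genes tested. In limma's test with Benjamini-Hochberg adjustment over all genes, IFIT1 and IFIT2 fell (2 members, where 0.555% of all genes tested were called lower) and ISG20 rose (1 member, where 1.25% were called higher). By a rule of at least 2-fold with limma's unadjusted p under 0.05, 5 members were lower (IFIT1, IFIT2, SAMD9L, PARP9 and IFI44, with 4% of all genes in the background) and 2 were higher (IRF7 and ISG20, with 4.28% in the background). With p from the t-test that the methods of the study name, the same rule gave 3 members lower and 2 higher. By the same 2-fold rule with that t-test, 474 of all 17668 genes tested were lower and 531 higher. By size alone 6 members were at least 2-fold lower, with DTX3L added (5.95% of all genes), and 2 were at least 2-fold higher (6.67% of all genes). Among these 6, the probes of IFIT2, SAMD9L and DTX3L passed the filter through the controls alone. With a filter on all 4 arrays, the 2-fold rule with limma's unadjusted p gave 3 members lower and 2 higher. Over the 15560 genes of that filter, 519 were lower and 562 higher. Of the 37 members with a value on all 4 arrays, both embelin arrays lay below both control arrays in 24 (30.7% of all genes with 4 values) and above them in 2 (21.1% of all genes). In the remaining 11 members the groups overlapped. Since the group was chosen on this contrast, nothing is read from these counts. No member passed limma's adjusted test once any 1 of the 4 arrays was left out. The log2 fold change then ran from -3.67 to -3.52 for IFIT1, from -3.15 to -2.46 for IFIT2 and stayed at or above 1.35 for ISG20. With 2 arrays a group, an exact two-sided permutation test of a single gene cannot give a p below 0.333. The p-values from limma come from the fit over all genes, and those of the methods' t-test from each gene alone.

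**Figure D2:**
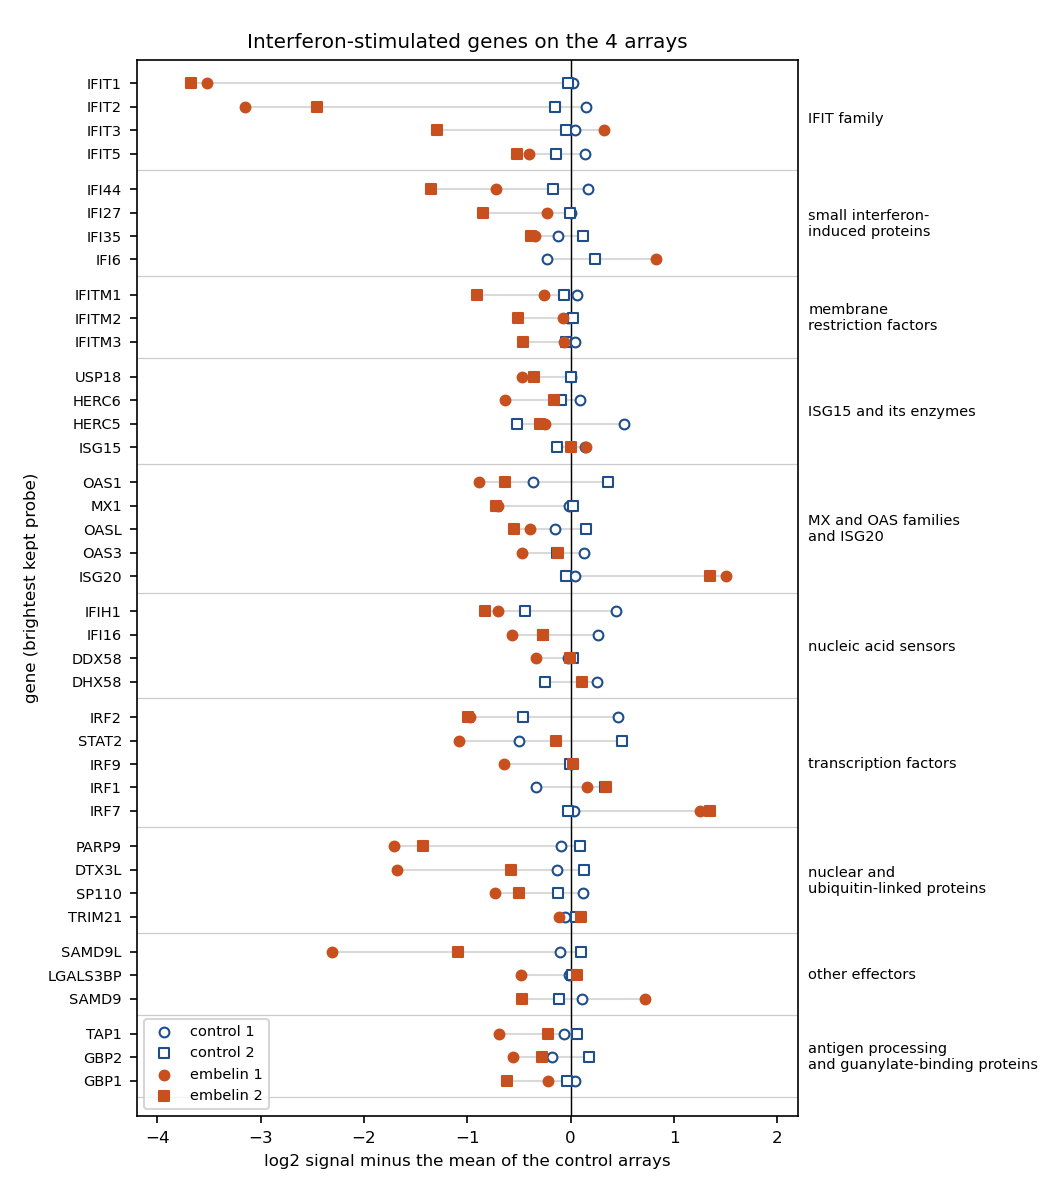
Log2 signal of the 39 tested members on each array minus the mean of the control arrays, with open symbols for control and filled symbols for embelin, grouped by role. IFIT1 and IFIT2 lie farthest to the left, IRF7 and ISG20 farthest to the right, and in most of the other genes the embelin symbols sit less than 1 log2 unit below the controls. IFI6 and DHX58 lack 1 embelin array each.

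The IFIT proteins bind foreign RNA ends and block their translation, and this family held the largest differences among the members. IFIT1, which recognises RNA without the host's cap methylation, had a log2 signal of 9.88 and 9.83 on the control arrays and of 6.34 and 6.18 on the embelin arrays. All 4 arrays were well above background, the groups lay far apart, and the log2 fold change of -3.60 (SE 0.17) was a 12.1-fold lower signal, the 8th lowest value among all genes tested (limma, adjusted p = 0.020, from 0.0013 to 0.327 over the alternatives). With normexp background correction it was 6.66-fold lower (-2.73). IFIT2, which has been linked to apoptosis as well as to viral RNA, had a log2 signal of 8.90 and 8.60 in control and of 5.60 and 6.30 in embelin. Its groups did not overlap, but its probe was called above background on only 1 embelin array and so passed the filter through the controls alone. The log2 fold change was -2.80 (SE 0.31), or 6.98-fold lower (limma, adjusted p = 0.045, from 0.0096 to 0.397 over the alternatives), and -1.86, or 3.64-fold lower, with normexp. IFIT2 had no kept probe under the filter on all 4 arrays.

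The other members of the family differed less. IFIT3, which stabilises IFIT1 in a complex, had a log2 signal of 6.19 and 6.10 in control and of 6.46 and 4.85 in embelin. Embelin 1 was the highest of the 4 arrays and embelin 2 the lowest, so that the groups overlapped around a log2 fold change of -0.48 (SE 0.58), which turned to 0.32 without embelin 2. IFIT5, which also binds single-stranded RNA ends, had a log2 fold change of -0.46 by its brightest probe and of -0.80 by its other kept probe. The RefSeq gene table places IFIT2 beside IFIT3 and IFIT1 beside IFIT5 on chromosome 10, so that in each of these pairs a gene with a large difference lay next to one with a small difference. As printed above, the windows of IFIT1 and IFIT3 each held 2 matches of the core.

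Of the small interferon-induced proteins, IFI44, a cytoplasmic protein of the antiviral response, had a log2 signal of 7.67 and 7.34 in control and of 6.79 and 6.16 in embelin. Its groups did not overlap, and the log2 fold change of -1.03 (SE 0.29) did not pass the adjusted test (adjusted p = 0.176). IFI27, a mitochondrial protein, and IFI35 had log2 fold changes of -0.54 and -0.36, again with both embelin arrays below both controls. IFI6, which limits viral replication at the endoplasmic reticulum, had a value of 0.83 fitted without embelin 2, where its spot was an outlier, and -0.15 by its other kept probe, so that its direction is not settled here. IFI44L, the neighbour of IFI44, was not kept.

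Among the membrane restriction factors, the IFITM proteins block the fusion of enveloped viruses with cell membranes. IFITM1 had a log2 signal of 8.62 and 8.49 in control and of 8.29 and 7.65 in embelin. IFITM2 had 13.11 and 13.16 in control and 13.06 and 12.62 in embelin. IFITM3 had 12.61 and 12.53 in control and 12.51 and 12.11 in embelin. In each of the 3 genes both embelin arrays were below both controls with embelin 2 the lowest, at log2 fold changes of -0.59, -0.29 and -0.26, and none passed the adjusted test. The 3 genes are neighbours on chromosome 11 and IFITM2 and IFITM3 are near-identical in sequence, and whether each probe read its own gene alone was not tested. BST2 (tetherin), which holds budding virions on the cell, was not kept, with a log2 signal between 4.26 and 5.05 on the 4 arrays.

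ISG15 is a ubiquitin-like protein, USP18 removes it from proteins, and HERC5 attaches it. ISG15 had a log2 signal of 11.09 and 10.82 in control and of 11.10 and 10.96 in embelin. The groups overlapped, and the log2 fold change was 0.08 (SE 0.19) in a gene whose window held 2 overlapping matches of the core, as printed above. USP18 had a log2 fold change of -0.41, with both embelin arrays below both controls and its other kept probe at -0.60. HERC6, a relative of HERC5, had -0.40 and HERC5 had -0.28, and the groups overlapped in HERC5.

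MX1 is a GTPase that traps viral nucleocapsids, the OAS proteins make the signal that activates RNase L, and ISG20 is an exonuclease that degrades RNA. MX1 had a log2 signal of 8.15 and 8.19 in control and of 7.47 and 7.45 in embelin. The arrays of each group lay close together and the groups apart, at a log2 fold change of -0.71 (SE 0.16, adjusted p = 0.120). OAS1 had a log2 signal of 8.57 and 9.29 in control and of 8.05 and 8.30 in embelin, a log2 fold change of -0.76 (SE 0.31), with the controls farther from each other than the groups at their nearest arrays. OAS3 and the related OASL had log2 fold changes of -0.30 and -0.47.

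ISG20 went the other way. Its log2 signal was 13.14 and 13.05 in control and 14.60 and 14.44 in embelin. Both embelin arrays were above both controls by over 1 log2 unit, and the log2 fold change of 1.42 (SE 0.17) was a 2.69-fold higher signal, close to the threshold in limma's test (adjusted p = 0.0497, from 0.0039 to 0.411 over the alternatives). Its window held 1 match of the core, whose first base lies at position -69 from the start. MX2, OAS2, RSAD2 (viperin) and CMPK2, which lies beside RSAD2 on chromosome 2, were not kept. A probe of RSAD2 was well above background only on control 2, at a log2 signal of 7.12 against 1.77, 3.95 and 2.69 on control 1, embelin 1 and embelin 2.

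The sensors of viral nucleic acid include IFIH1 (MDA5) and DDX58 (RIG-I), which bind double-stranded RNA in the cytoplasm, DHX58 (LGP2), which modulates both, and IFI16, which binds DNA. IFIH1 had a log2 signal of 8.07 and 7.18 in control and of 6.92 and 6.80 in embelin. Its groups did not overlap, its log2 fold change was -0.76 (SE 0.35), and its 3 kept probes ran from -0.76 to -0.51. DDX58 had 8.96 and 9.02 in control and 8.65 and 8.98 in embelin, where the groups overlapped at a log2 fold change of -0.17 (SE 0.19). IFI16 had -0.42, and DHX58 had 0.11 in a fit without embelin 1, where its spot was an outlier.

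Of the transcription factors among the members, IRF7 drives interferon alpha genes, IRF1 acts after interferon gamma, IRF2 counters IRF1, and IRF9 and STAT2 are parts of the complex that binds the response element. IRF7 had a log2 signal of 9.79 and 9.73 in control and of 11.01 and 11.11 in embelin. Like ISG20 it was higher on both embelin arrays, with a log2 fold change of 1.30 (SE 0.16), or 2.47-fold, and it missed the adjusted threshold (adjusted p = 0.053, from 0.011 to 0.416 over the alternatives). STAT2 had 5.91 and 6.90 in control and 5.32 and 6.26 in embelin, where the arrays interleaved at a log2 fold change of -0.61 (SE 0.50) and its probe was called above background on 1 embelin array. IRF9 had 8.66 and 8.65 in control and 8.01 and 8.68 in embelin, a log2 fold change of -0.31 (SE 0.28). IRF1 had 8.99 and 9.66 in control and 9.49 and 9.67 in embelin, a log2 fold change of 0.25 (SE 0.29). The groups overlapped in all 3 of these genes, and IRF2 had a log2 fold change of -0.98 with both embelin arrays below both controls (adjusted p = 0.250).

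Among the nuclear and ubiquitin-linked members, PARP9 and DTX3L form a complex that modifies histones and viral proteins. PARP9 had a log2 signal of 9.27 and 9.45 in control and of 7.65 and 7.94 in embelin. The groups were over 1 log2 unit apart, and the log2 fold change of -1.57 (SE 0.20) missed the adjusted threshold (adjusted p = 0.053), with -0.82 by its other kept probe. DTX3L had 7.26 and 7.51 in control and 5.70 and 6.80 in embelin, a log2 fold change of -1.13 (SE 0.42) by a probe called above background on 1 embelin array and of -0.17 by its other kept probe. The 2 genes are neighbours on chromosome 3 that run in opposite directions, and the match of the core in capitals in the PARP9 line, at chr3:122564332-122564341, is also the match at position -6 from the start of DTX3L. SP110, a nuclear body protein, had a log2 fold change of -0.62 and TRIM21, an antibody receptor that tags its targets with ubiquitin, of -0.01. TRIM22 was not kept.

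SAMD9L and SAMD9, neighbours on chromosome 7 that code for related antiviral proteins, had unlike values. SAMD9L had a log2 signal of 6.72 and 6.92 in control and of 4.51 and 5.73 in embelin. Both embelin arrays were below both controls, 1 of them was called above background, and the log2 fold change was -1.70 (SE 0.46, adjusted p = 0.164), or -0.67 with normexp. SAMD9 had 8.86 and 8.64 in control and 9.48 and 8.29 in embelin, with the highest and the lowest value both in the embelin group and a log2 fold change of 0.13 (SE 0.45). LGALS3BP, a secreted glycoprotein, had 10.51 and 10.53 in control and 10.04 and 10.58 in embelin, where the groups overlapped at a log2 fold change of -0.21 (SE 0.25). EPSTI1 was not kept. TAP1, which carries peptides into the endoplasmic reticulum, and the guanylate-binding proteins GBP1 and GBP2 had log2 fold changes of -0.46, -0.42 and -0.42 with both embelin arrays below both controls. The other kept probe of GBP1 gave 0.33 (SE 0.81), with 5.80 and 5.49 in control and 7.13 and 4.82 in embelin. That probe was above background on 3 arrays and passed the filter through the embelin arrays alone.

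Over the promoter windows, the 21 tested members with a match of the core had a median log2 fold change of -0.46 (17 below control, 4 above) and the 10 tested members without a match had -0.41 (9 below, 1 above). The range ran from -3.60 to 1.42 in the first set and from -1.70 to 0.25 in the second.

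Background noise was compared within the 2 pairs of arrays that were alike in it. In the pair with less noise (embelin 2 against control 1), 30 of 38 members were below control (55.2% of all genes) with a median log2 difference of -0.47, and in the pair with more noise (embelin 1 against control 2) 31 of 38 were below (55.8% of all genes) with a median of -0.41. The medians over all genes were -0.06 and -0.09. IFIT1 (-3.70 and -3.49), IFIT2 (-2.61 and -3.00), PARP9 (-1.34 and -1.80), IRF7 (1.32 and 1.28) and ISG20 (1.31 and 1.54) had like values in both pairs. Of the 37 members with both values, 25 were below control in both pairs, 2 above in both, and 10 changed sign: STAT2 (0.36 and -1.58), SAMD9 (-0.58 and 0.83), IFIT3 (-1.33 and 0.36), HERC5, IRF1, IRF9, LGALS3BP, ISG15, DDX58 and TRIM21. The share of all genes on the same side in both pairs was not counted. The pairs split the same 4 arrays on which the group was chosen, so nothing is read from these counts.

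**Figure D3:**
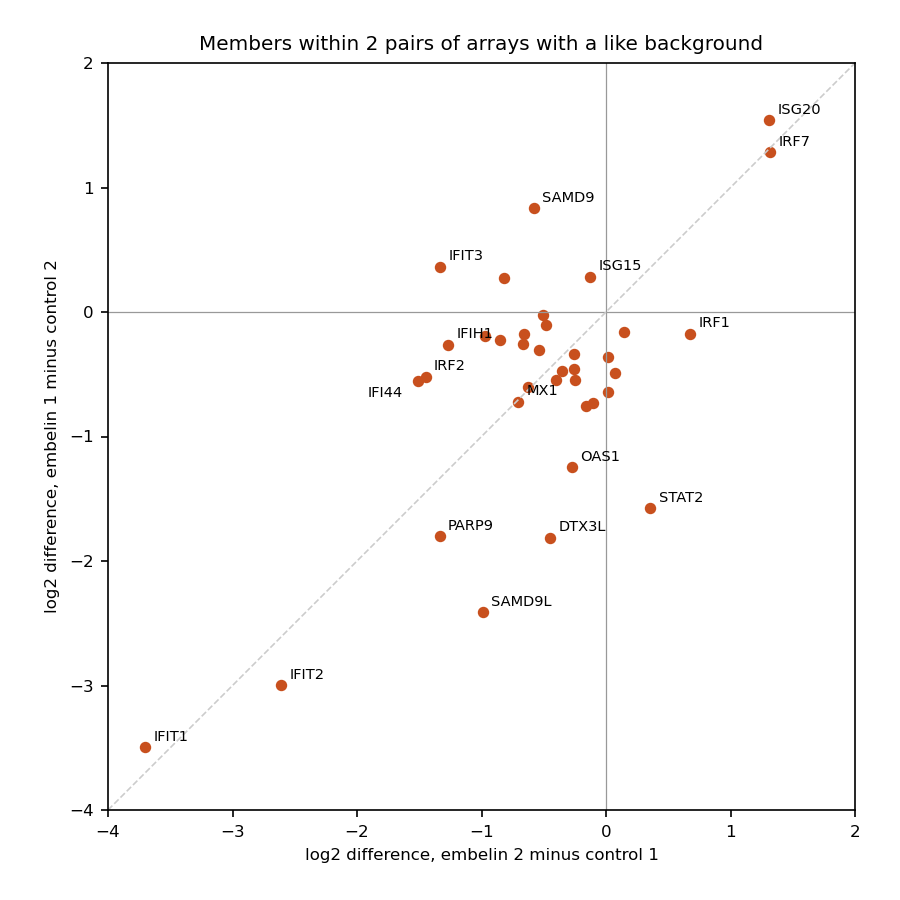
Log2 difference of each member between embelin 2 and control 1 (horizontal axis, the arrays with less background noise) and between embelin 1 and control 2 (vertical axis, the arrays with more), for the 37 members with a value on all 4 arrays. The dashed line marks equal values. Of the 37 members 25 lie below 0 on both axes, and the share of all genes that do so was not counted.

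The rest of the pathway was read from 94 further genes in 6 lists, of which 77 were tested. By limma's adjusted test 1 of the 77 fell and 0 rose (background 0.555% and 1.25% as above). In 48 the value was below control (62.3%, against 56.1% of all genes tested). The median log2 fold change was -0.09, against -0.06 over all genes tested. Of 10 interferon genes, 9 were not kept, IFNB1 among them, and IFNE, an interferon of epithelia, had a log2 signal of 7.63 and 6.88 in control and of 8.01 and 7.96 in embelin (log2 fold change 0.73, adjusted p = 0.303). All 9 receptors and JAK kinases were tested and none was called or at least 2-fold changed. IFNAR1 (0.17), IFNAR2 (0.06), JAK1 (0.06) and TYK2 (-0.18) had small log2 fold changes, with overlapping groups in all but TYK2. Larger values stood in the receptors of the other interferons, with IFNLR1 (interferon lambda) at 0.97 (SE 0.20, adjusted p = 0.111) and IFNGR2 at 0.63, both higher on both embelin arrays, and IFNGR1 at -0.48, lower on both. JAK2 (-0.32) and IL10RB (-0.06) had overlapping groups.

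Among the transcription factors outside the members, IRF3, which switches on interferon beta, had a log2 fold change of -0.64, and BATF2, a factor of interferon gamma responses, had -1.60 (SE 0.20, adjusted p = 0.053) with 1 embelin array above background. In the relay from the sensors, TICAM1 (TRIF), the adaptor of TLR3, had 11.79 and 11.89 in control and 12.97 and 13.01 in embelin, a log2 fold change of 1.15 (adjusted p = 0.060). STING1, the adaptor of the DNA sensor CGAS, had 7.87 and 7.57 in control and 8.78 and 8.81 in embelin, a log2 fold change of 1.08 (adjusted p = 0.085). These 2 adaptors were the only pathway genes outside the members at least 2-fold higher, and MAVS (0.43) and TBK1 (0.33) were above control by less.

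Of the 44 further interferon-stimulated genes, 40 were tested and 29 were below control (72.5%, against 56.1% of all genes tested). Their median log2 fold change was -0.19, against -0.06 over all genes tested. TNFSF10 (TRAIL), a death ligand, had a log2 signal of 7.82 and 7.47 in control and of 5.34 and 5.69 in embelin. Its log2 fold change was -2.13 (SE 0.23, limma, adjusted p = 0.045), and it passed the filter through the controls alone, with 1 embelin array above background. TRIM34 (-1.72), TAP2 (-1.54) and TRAFD1 (-1.30) were also at least 2-fold lower without an adjusted call, and so were ZBP1 (-1.48) and TLR4 (-2.81, fitted without control 1) among the sensing genes. Of these 5 genes only TRIM34 was above background on both embelin arrays, and the others passed the filter through the controls alone. The groups overlapped in TRAFD1, and in TAP2 the controls were 5.94 and 8.40. The negative regulators SOCS1 and SOCS3 had log2 fold changes of 0.29 and -0.42.

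**Figure D4:**
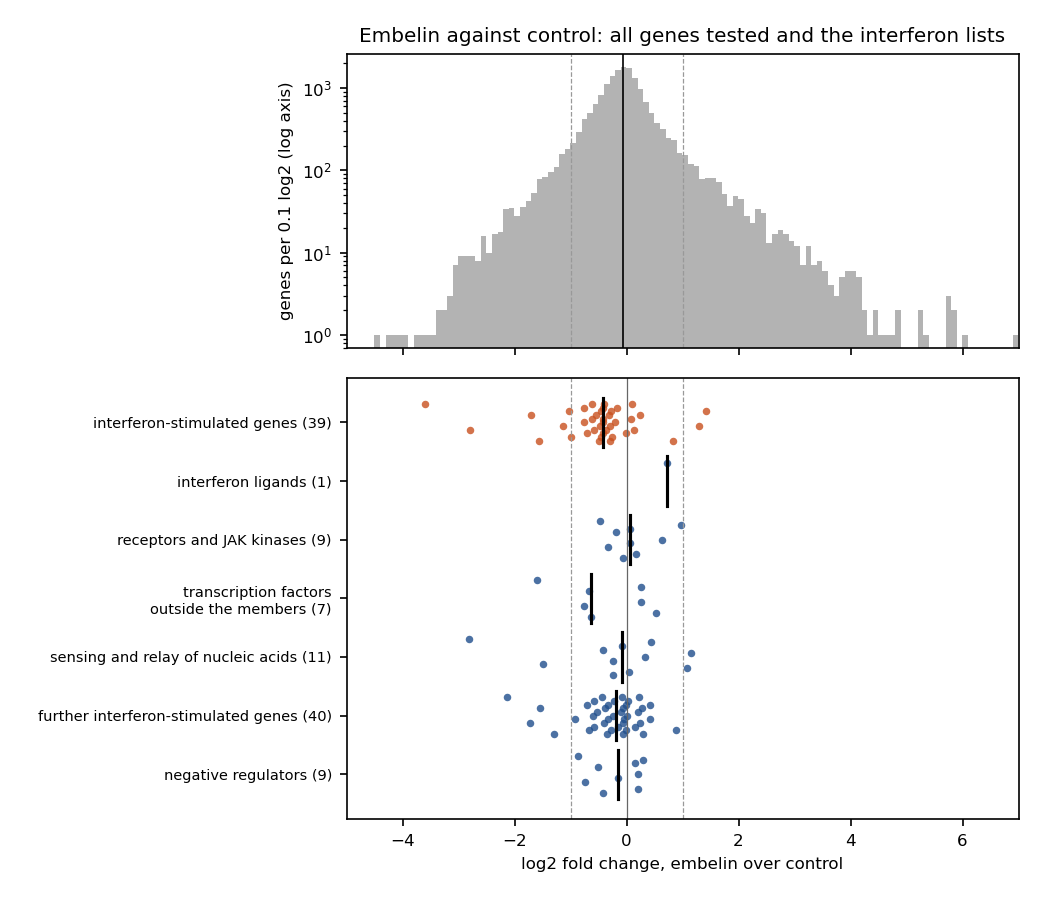
Upper panel, number of genes per 0.1 log2 unit of the embelin over control fold change for all 17668 genes tested (vertical log axis, black line at the median of -0.06). Lower panel, each point is 1 tested gene of the interferon-stimulated genes (orange) or of a pathway list (blue), with a black bar at the median of the list and dashed lines at 2-fold. The median is -0.42 in the 39 interferon-stimulated genes, -0.64 in the 7 transcription factors outside the members, -0.19 in the 40 further interferon-stimulated genes and 0.06 in the 9 receptors and JAK kinases, and the interferon ligands are 1 gene at 0.73.

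**Figure D5:**
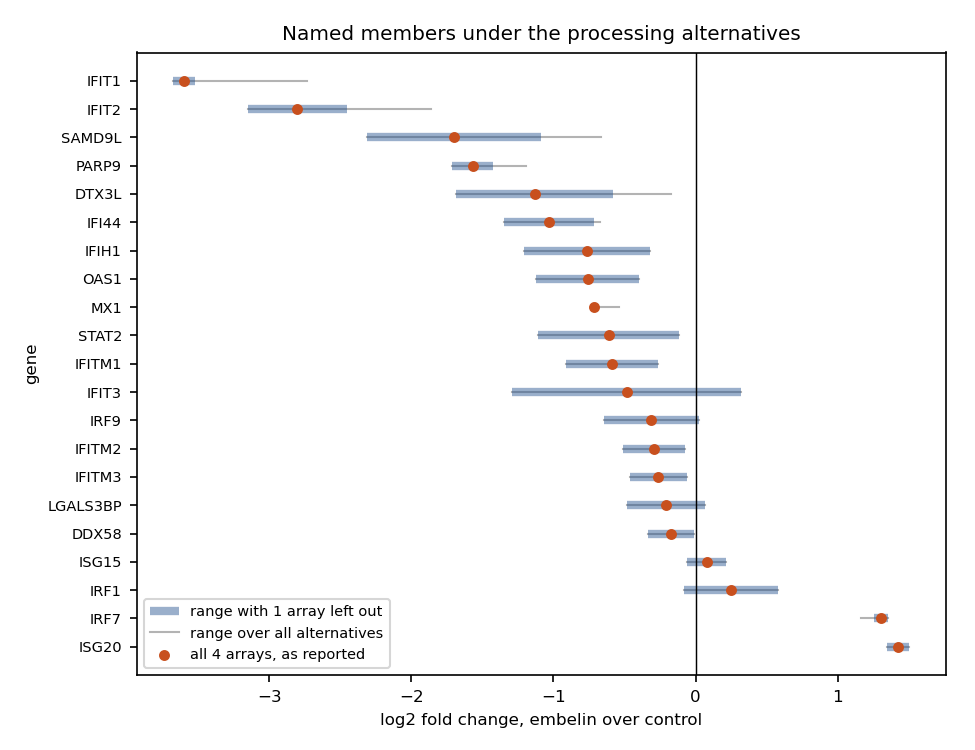
Log2 fold change of the 21 named members with all 4 arrays (points), its range when 1 array was left out (blue bars) and its range over all processing alternatives (grey lines). IFIT1, IFIT2, PARP9, IRF7 and ISG20 keep over 1 log2 unit on their side of 0 under every alternative with a value. Alternatives that change only the p-value add nothing to the grey lines. The bars of IFIT3, IRF9, LGALS3BP, ISG15 and IRF1 cross 0. IFIT2, STAT2 and SAMD9L have no value under the filter on all 4 arrays.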

How the data were processed

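The authors deposited the scanner files of 4 single-colour (Cy3) arrays and a table of probe values, both in units of intensity. Per the labels and the file headers, Agilent Feature Extraction 10.7.3.1 had subtracted background and set a substitute value for spots at background, and the intensities were not normalized between arrays. Arrays have no read depth, so that their number and the signal over background limit the precision.

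Spots marked as outliers were left out of the signal but were counted in the call above background. Arrays were brought to the same 75th percentile, values below 1 were set to 1, log2 was taken, and the 50238 probes were averaged over their spots. A probe was kept where it was well above background on all control arrays or on all embelin arrays. The brightest kept probe stood for a gene, and 2 members carry an older name in the files. The groups were compared with limma 3.58.1 under R 4.3.3 (lmFit, eBayes, no covariate), two-sided, with Benjamini-Hochberg adjustment over the 17668 genes tested and a threshold of 0.05. The fit was tested on simulated data. Promoter windows came from the RefSeq table of GRCh38.p14 and were searched with Python 3.11.15.

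The members and all gene lists were chosen with earlier results of these data known. Values on all 4 arrays were given for members called after adjustment or changed at least 2-fold and for a fixed list of well-known members. Fold changes were not centred on the median of all genes. Alternatives were normexp background correction (offset 50), quantile normalization, the deposited table, no filter on dim probes, a filter on all 4 arrays, a mean over probes, a block for the replicate number, the methods' t-test, trend and robust in eBayes, and each array left out in turn. A gene of the pathway lists is not reported here by name, and the counts include it.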

Additional observations from a re-analysis of the deposited data

How the results depend on the processing

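The direction of 16 of the 21 named members held under every alternative run. The methods' t-test, trend and robust in eBayes and the replicate block change only the p-value, so they could not change a direction. Values without the filter on dim probes were also the same. Of the 16, STAT2 (0.36 and -1.58) and DDX58 (0.02 and -0.36) had opposite signs in the 2 pairs of arrays with like background. The other 5 named members changed sign when 1 array was left out. IRF1 ran from -0.083 (without control 1) to 0.58, ISG15 from -0.057 (without control 2) to 0.21, IRF9 from -0.65 to 0.026 and LGALS3BP from -0.48 to 0.065 (both without embelin 1), and IFIT3 from -1.29 to 0.32 (without embelin 2). The median of the members stayed between -0.47 and -0.29.

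The adjusted calls depended on the processing. Called lower and higher were 2 and 1 members (98 and 221 genes) as reported, 3 and 2 members (278 and 423 genes) with normexp, 1 and 0 (63 and 176) with quantile normalization, 1 and 0 (44 and 141) with the deposited table, 2 and 2 (345 and 421) with the filter on all 4 arrays, 3 and 2 (495 and 568) with trend and robust, and 2 and 0 (57 and 163) with the mean over probes. Both counts were 0, for members and for all genes, in limma without the filter on dim probes and in the methods' t-test. Without the filter, 6 members and 1238 of 30987 genes were lower at limma's unadjusted p under 0.05, and 2 members and 1109 genes higher. By the unadjusted t-test 5 members and 1586 of 17668 genes were lower, and 2 members and 1173 genes higher. No member or other gene was called without any 1 array, control or embelin. By the 2-fold rule with an unadjusted p, the members lower were 3 in place of 5 with normexp, with the filter on all 4 arrays and in the methods' t-test, 368 in place of 707 genes were lower with normexp, and with 1 array left out 5 to 6 members and 582 to 1118 genes were lower and 674 to 1148 genes higher.

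With the replicate number as a block, limma called 0 members and 0 genes lower and 0 members and 0 genes higher. At an unadjusted p under 0.05 that fit had 10 members and 2079 of 17668 genes lower, and 2 members and 1678 genes higher. Samples with the same number correlated at 0.18 in their deviations from the group means over 17316 genes, and with 2 pairs they share only a number. The cause of these differences was not tested. Signal over background limits the 8 members not kept and the 4 members IFIT2, STAT2, DTX3L and SAMD9L, whose probe was well above background on 1 embelin array.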
